A study of Rattus norvegicus with 5 samples.

Results

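The subject is a set of 10 transcription factor genes that mark and specify sensory neurons: Isl1, Isl2, Pou4f1, Pou4f2, Pou4f3, Runx1, Runx3, Tlx3, Prdm12 and Drgx. They were taken by symbol from the gene table, and all 10 were found among its 33014 genes. The samples were 5 RNA-seq libraries of cultured dorsal root ganglion cells from wild-type Sprague Dawley rats of postnatal day 10, which form a single group. The ganglia came from a litter of 10 pups, 5000 cells were seeded in each well, the cells were treated with PBS (buffered saline) after 1 day, and RNA was taken from 3 pooled wells a library after 8 days. The study built an optical screen for pain drugs on such cultures, and nothing in the labels says that the libraries came from separate preparations. What the tests below measure is thus the scatter among 5 libraries, and that scatter may be technical. With bulk RNA, fewer cells of a type and less RNA per cell cannot be told apart.

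Sensory neurons of the dorsal root ganglion arise from neural crest, and a cascade of factors turns progenitors into neurons and then into classes that sense pain, itch, touch or position. Isl1 (a LIM homeodomain factor) and Pou4f1 (a POU homeodomain factor, also called Brn3a) act in nearly all of these neurons and close the early neurogenic programme. Prdm12, Tlx3 and Drgx belong to the programme of nociceptors, the pain-sensing neurons. Runx1 and Runx3 divide the lineages: Runx1 acts in nociceptors, mainly those without neuropeptides, and Runx3 in the proprioceptors, which sense limb position. Both also act in blood cells, macrophages and lymphocytes included.

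Gene starts give a first view of the set. RefSeq's table for the GRCr8 build held 12 windows of 300 bases for the 10 genes, from 250 bases before to 50 after a start site, with 2 starts each for Prdm12 and Runx3. They were searched on both strands for TGTGGT, the core read by Runx proteins, for TAATGA and for the overlapping word ATTAAT, which hold a core read by homeodomain proteins, for CAGCTG and for the related CATCTG, E-boxes of the kind that proneural factors bind, and for TATAAA, the TATA box. The windows that carry the matches described next are printed 5′ to 3′ on the gene's strand, with matches in capitals.

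Prdm12, downstream start, chr3:35325758-35326057, plus strand: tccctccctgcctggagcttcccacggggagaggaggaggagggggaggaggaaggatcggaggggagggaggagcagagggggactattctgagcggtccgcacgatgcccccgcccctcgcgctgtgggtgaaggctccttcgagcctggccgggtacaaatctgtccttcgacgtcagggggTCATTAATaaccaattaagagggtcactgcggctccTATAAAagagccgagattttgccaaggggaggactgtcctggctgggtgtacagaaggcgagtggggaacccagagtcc
Runx3, upstream start, chr5:152644020-152644319, plus strand: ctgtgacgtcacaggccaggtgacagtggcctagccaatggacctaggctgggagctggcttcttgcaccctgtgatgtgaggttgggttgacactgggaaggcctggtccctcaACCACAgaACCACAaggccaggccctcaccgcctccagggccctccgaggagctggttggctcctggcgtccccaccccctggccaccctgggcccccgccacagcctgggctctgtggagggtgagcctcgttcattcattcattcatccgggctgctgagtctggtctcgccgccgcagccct
Pou4f1, chr15:87674594-87674893, minus strand: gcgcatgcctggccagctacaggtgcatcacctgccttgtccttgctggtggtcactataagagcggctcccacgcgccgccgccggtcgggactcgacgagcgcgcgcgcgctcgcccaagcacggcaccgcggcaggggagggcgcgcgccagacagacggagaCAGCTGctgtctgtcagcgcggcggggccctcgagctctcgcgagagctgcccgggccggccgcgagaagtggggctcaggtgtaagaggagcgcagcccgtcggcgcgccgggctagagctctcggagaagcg

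The Prdm12 window held TATAAA beginning at base -29, and TAATGA on the other strand and ATTAAT on the gene's strand beginning at -65 and -63, where these 2 words overlap. The upstream Runx3 window held TGTGGT on the other strand at 2 places (read as ACCACA above), beginning at -135 and -127, and no other member's window held it. Pou4f1 held the E-box CAGCTG at -84. Across all 33469 windows of the table, TGTGGT was found in 17.3%, TAATGA in 11.0%, ATTAAT in 5.21%, CAGCTG in 15.1%, CATCTG in 16.6% and TATAAA in 14.2%. Among the 12 windows of the set, CAGCTG was in 2, TATAAA was in 2, and each of the other words was in 1, so no word was frequent in the set. The members' windows differed in base composition: Pou4f1 had 41 CpG pairs and 72.3% G and C, whereas Runx1 had 6 CpG pairs and 34.3% G and C, beside a median of 7 CpG pairs over all windows. These matches describe letters and do not show binding.

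All 10 factors were expressed in every library, from Prdm12 at 40.7 ± 2.96 TPM (transcript level per length, scaled to the library; mean ± SD, n = 5 here and below) to Pou4f2 at 2.81 ± 0.532 TPM. At the threshold of 1 TPM in every library, 10 of 10 members were detected, beside 41.3% of the genes in the table. Their median level was 11.3 TPM, below the 20.5 TPM median of all detected genes, and together they held 152 to 178 TPM in each library. The order of mean TPM was Prdm12, Tlx3, Pou4f1, Isl1, Runx1, Isl2, Drgx, Runx3, Pou4f3 and Pou4f2. Libraries held 21596608 to 27913098 estimated reads, and reads behind a member ran from 56 (Runx3 in replicate 2) to 1855 (Pou4f1 in replicate 4).

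**Figure D1:**
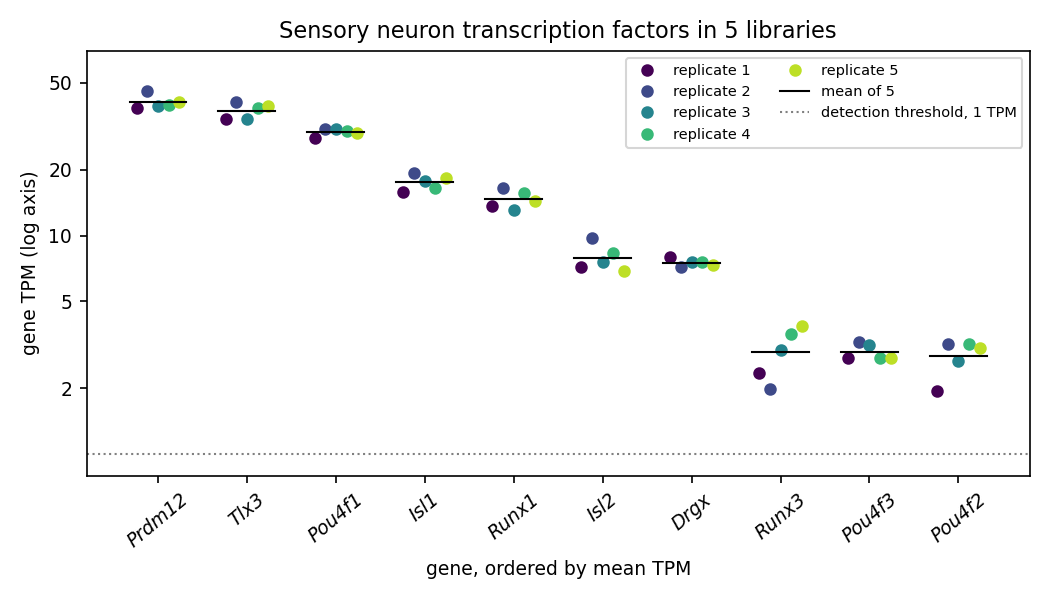
Gene TPM (log axis) of the 10 factors in each of 5 libraries, with points for libraries, bars for means and a dotted line at 1 TPM. Prdm12, Tlx3 and Pou4f1 lie between 27.9 and 45.8 TPM, and Runx3, Pou4f3 and Pou4f2 between 1.94 and 3.84 TPM.

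The nociceptor factors Prdm12 and Tlx3 stood at the top of the set in TPM and above Drgx. Prdm12, a PRDM-family regulator needed for pain-sensing neurons to form, was at 38.2, 45.8, 39.2, 39.7 and 40.8 TPM in replicates 1 to 5. Tlx3, a homeodomain factor of the nociceptor programme, was at 34.1, 40.7, 34.0, 38.4 and 38.9 TPM. Replicate 2 was the highest for both genes, and their ranges overlapped. Drgx, a paired-type homeodomain factor of nociceptors also called Drg11, was at 7.99, 7.22, 7.56, 7.57 and 7.32 TPM, below every value of the other two.

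Comparisons between genes used the log2 ratio (TPM + 0.1) within each library, fitted with limma for every gene against a fixed reference gene, with p-values adjusted over the 14227 genes tested. Prdm12 exceeded Drgx by 5.34-fold (log2 2.42 ± 0.15; limma adjusted p = 7.75e-09) and Tlx3 exceeded Drgx by 4.88-fold (log2 2.29 ± 0.17; limma adjusted p = 1.69e-08), in 5 of 5 libraries each. In reads without division by length both ratios were smaller, at log2 1.69 for Prdm12 (limma adjusted p = 6.04e-09) and 1.14 for Tlx3 (limma adjusted p = 1.73e-07). Of the other 9 members, 8 differed from Drgx, beside 96.0% of all genes tested, so a call alone says little here and the size of a ratio matters more. Prdm12 lay above Tlx3 in 5 of 5 libraries, by 1.09-fold (log2 0.13 ± 0.07), which did not pass the test (limma adjusted p = 0.0662). With Prdm12 in place of Tlx3 as the reference gene the same difference passed it (limma adjusted p = 0.0313). Against Tlx3, 8 of 9 members differed (93.9% of genes tested), and against Prdm12, 9 of 9 (94.9%).

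The broad sensory factors came next, with Pou4f1 ahead of Isl1. Pou4f1 was at 27.9, 30.7, 30.6, 30.1 and 29.6 TPM, a range of 1.10-fold. Isl1 was at 15.8, 19.4, 17.7, 16.5 and 18.4 TPM, below Pou4f1 in every library, with no overlap. The ratio of Isl1 to Pou4f1 was 0.590 (log2 -0.76 ± 0.09; limma adjusted p = 1.18e-06), and log2 -1.95 without division by length. Tlx3 lay 1.25-fold above Pou4f1 (log2 0.32 ± 0.10; limma adjusted p = 0.000352), a pair picked as neighbours in the observed order of these same libraries. Against Pou4f1, 9 of 9 members differed (96.0% of genes tested), as did 9 of 9 against Isl1 (94.1%).

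Length weighed on this part of the order. The main Pou4f1 transcript has 3810 bases, against 1548 for the transcript of Prdm12 and 1223 for that of Tlx3. In CPM (estimated reads scaled to the library total), with no division by length, Pou4f1 was the highest member at 64.8, ahead of Prdm12 at 32.2, Runx1 at 27.6, Tlx3 at 22.0 and Isl1 at 16.7. The ratio of Tlx3 to Pou4f1 then turned to log2 -1.56 (limma adjusted p = 5.72e-09). Transcript length enters that ratio, so it is not a test of the TPM difference alone.

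Isl1 held most of the Isl family's level. Isl2, a close relative of Isl1, was at 7.196, 9.71, 7.57, 8.32 and 6.87 TPM, below the lowest Isl1 value in all libraries. Isl1 exceeded it by 2.21-fold (log2 1.14 ± 0.18; limma adjusted p = 5.16e-15) and made up 68.9% ± 2.61 of the summed TPM of both, between 66.5% and 72.8%. Isl2 and Drgx were neighbours in the order and did not differ beyond their spread (log2 0.06 ± 0.23; limma adjusted p = 0.48), with Isl2 higher in 3 of 5 libraries. Of the other members, 8 of 9 differed from Isl2 (92.5% of genes tested). Where Isl2, Runx3 or Pou4f2 was the reference, its own scatter was shared by all genes of the fit, the prior degrees of freedom were infinite, and p-values took the spread as known and are too small. With Isl1 as the reference gene the Isl1 and Isl2 comparison gave a limma adjusted p of 1.05e-07.

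Of the Pou4f family, Pou4f1 held 83.8% ± 1.09 of the summed TPM. Pou4f2 (Brn3b), best known from retinal ganglion cells, was at 1.94, 3.19, 2.67, 3.20 and 3.06 TPM. Pou4f3 (Brn3c), best known from hair cells of the inner ear, was at 2.75, 3.26, 3.17, 2.75 and 2.76 TPM. Both lay far below every Pou4f1 value, and their own ranges overlapped. Pou4f1 exceeded Pou4f2 by 10.4-fold (log2 3.38 ± 0.25; limma adjusted p = 1.12e-82, or 3.03e-08 with Pou4f1 as the reference gene) and Pou4f3 by 9.85-fold (log2 3.30 ± 0.09; limma adjusted p = 1.63e-12). Pou4f2 and Pou4f3 did not differ beyond their spread (log2 -0.08 ± 0.28; limma adjusted p = 0.446). Without division by length, Pou4f1 over Pou4f3 was larger (log2 4.12; limma adjusted p = 1.29e-25), and Pou4f2 was the higher of the lower pair (log2 0.46; limma adjusted p = 1.98e-05), where transcripts of 3210 and 2272 bases also enter. Against Pou4f3 and against Pou4f2, 7 of 9 members differed (95.8% and 93.5% of genes tested).

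Runx1 was the main lineage-dividing Runx gene of the set and Runx3 the most variable member. Runx1 was at 13.6, 16.5, 13.1, 15.7 and 14.3 TPM. Runx3 was at 2.36, 1.99, 3.00, 3.55 and 3.84 TPM, lower than Runx1 in every library and lowest in replicates 2 and 1. Runx1 exceeded Runx3 by 4.95-fold (log2 2.31 ± 0.44; limma adjusted p = 3.30e-28, or 1.19e-12 with Runx1 as the reference gene), and log2 2.94 without division by length. The third relative, Runx2, known from bone and not a member, was at 14.1 ± 1.78 TPM. Runx1 therefore held 46.2% ± 4.08, Runx2 44.4% ± 4.68 and Runx3 9.36% ± 2.59 of the family's TPM. Runx2 overlaps Supt3h, at 13.6 TPM, in the GRCr8 gene table, so its level is uncertain without the strand setting.

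In the order, Runx1 followed Isl1 and preceded Isl2. The pairs that follow here were picked as neighbours in the observed order of mean TPM. Pair and test thus rest on the same libraries, and the p-values do not test an order set beforehand. Isl1 exceeded Runx1 by 1.20-fold (log2 0.26 ± 0.14; limma adjusted p = 0.00557), in 5 of 5 libraries. That call was lost without replicate 1 (limma adjusted p = 0.0774) and without replicate 5 (limma adjusted p = 0.134), and the direction turned without division by length (log2 -0.72; limma adjusted p = 1.00e-09). Runx1 exceeded Isl2 by 1.84-fold (log2 0.88 ± 0.12; limma adjusted p = 1.79e-09, or 5.18e-09 with Runx1 as the reference gene). Without division by length that ratio was log2 1.88. Drgx exceeded Runx3 by 2.57-fold (log2 1.36 ± 0.39; limma adjusted p = 8.61e-11, or 3.97e-05 with Drgx as the reference gene). Runx3 and Pou4f3 did not differ beyond their spread (log2 -0.03 ± 0.46; limma adjusted p = 0.84). Against Runx1, 9 of 9 members differed (93.5% of genes tested), and against Runx3, 7 of 9 (92.2%). Of all 45 pairs of members, 40 passed the test and 5 did not.

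**Figure D2:**
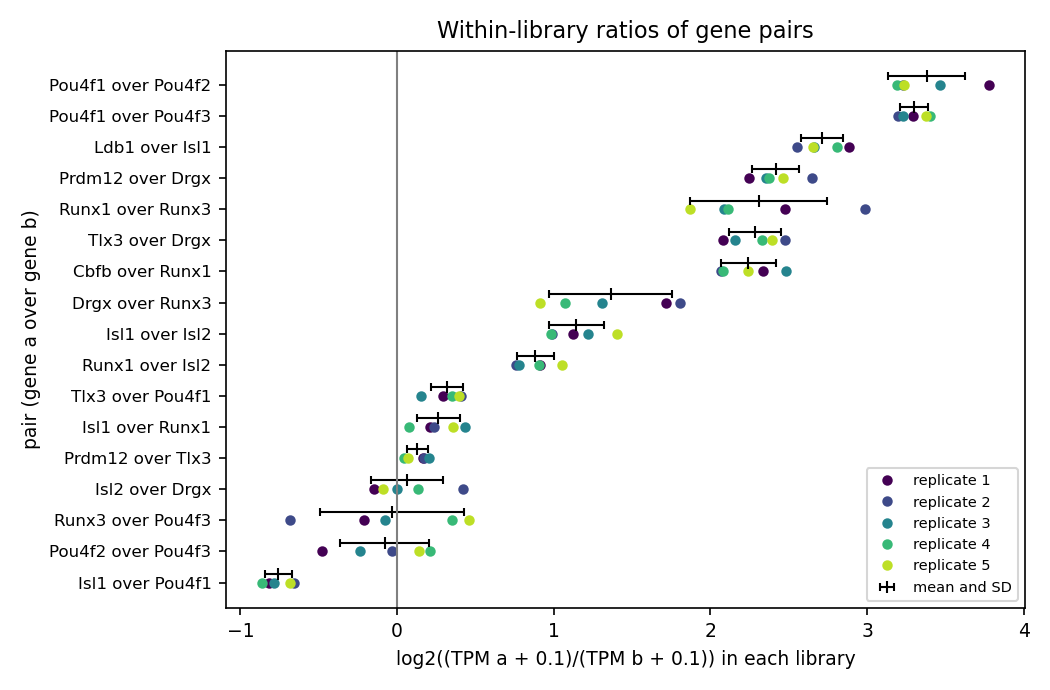
Log2 ratio of TPM + 0.1 in each library for 17 gene pairs (points), with mean and SD (bars above the points). Pou4f1 over Pou4f2 and over Pou4f3 lie near 3.3, and Isl2 over Drgx, Runx3 over Pou4f3 and Pou4f2 over Pou4f3 have libraries on both sides of 0.

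Of the listed partners, Cbfb and Ldb1 were compared with a member, and each was the higher of its pair. Cbfb, the subunit that Runx proteins pair with to bind DNA, was at 69.2, 69.5, 73.6, 66.7 and 68.01 TPM. It exceeded Runx1 by 4.73-fold (log2 2.24 ± 0.18; limma adjusted p = 8.33e-15). Ldb1, the adaptor that joins LIM homeodomain proteins such as Isl1 into complexes, was at 117, 114, 113, 116 and 116 TPM and exceeded Isl1 by 6.55-fold (log2 2.71 ± 0.13; limma adjusted p = 5.56e-11). Of 17 listed partners and corepressors, 16 were detected (beside 41.3% of all genes), with a median of 34.3 TPM. They were led by the Groucho-related Tle5 (388 ± 12.2 TPM) and by the LIM-only gene Lmo4 (266 ± 8.12 TPM). Ehmt2, a histone methyltransferase that works with Prdm12, was at 66.4 ± 2.40 TPM, and the lowest were Hipk2 at 5.50 ± 0.308 TPM and Lmo3, undetected at 0.198 ± 0.0411 TPM.

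Transcripts of the 10 genes were found in the quantification files, in part by name in RefSeq and in part because their TPM made up the gene's value in all 5 libraries. Isl1 was spread over 3 transcripts, of 2580, 1414 and 1060 bases, with 41.8% ± 1.36, 32.04% ± 5.31 and 26.2% ± 5.47 of the gene's TPM. The longest was the steadiest, between 40.3% and 43.6%, while the shortest ranged from 19.1% to 32.1%. Only the shortest is named for Isl1 in the GRCr8 table, and counting it alone would put Isl1 below Isl2 (log2 -0.79; limma adjusted p = 1.92e-05).

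Runx1 was led by a transcript of 2135 bases with 67.1% ± 3.58 of its TPM. The transcripts of 5686 and 5839 bases held 15.9% ± 7.29 and 12.4% ± 4.09, and 1 of the 5 Runx1 transcripts, of 5878 bases, had 0 reads. The share of the 5686-base transcript was 28.02% in replicate 3 and 10.1% in replicate 1. Runx3 was divided between transcripts of 1230 bases (54.4% ± 1.40) and 3337 bases (42.7% ± 2.57), and this split was alike in all libraries although the gene's level ranged over 1.93-fold. Pou4f1 came almost wholly from its 3810-base transcript (96.2% ± 1.51). Isl2, Pou4f2, Pou4f3, Tlx3, Prdm12 and Drgx had a single transcript each. Shares of transcripts with common exons rest on how the authors' model divided reads.

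**Figure D3:**
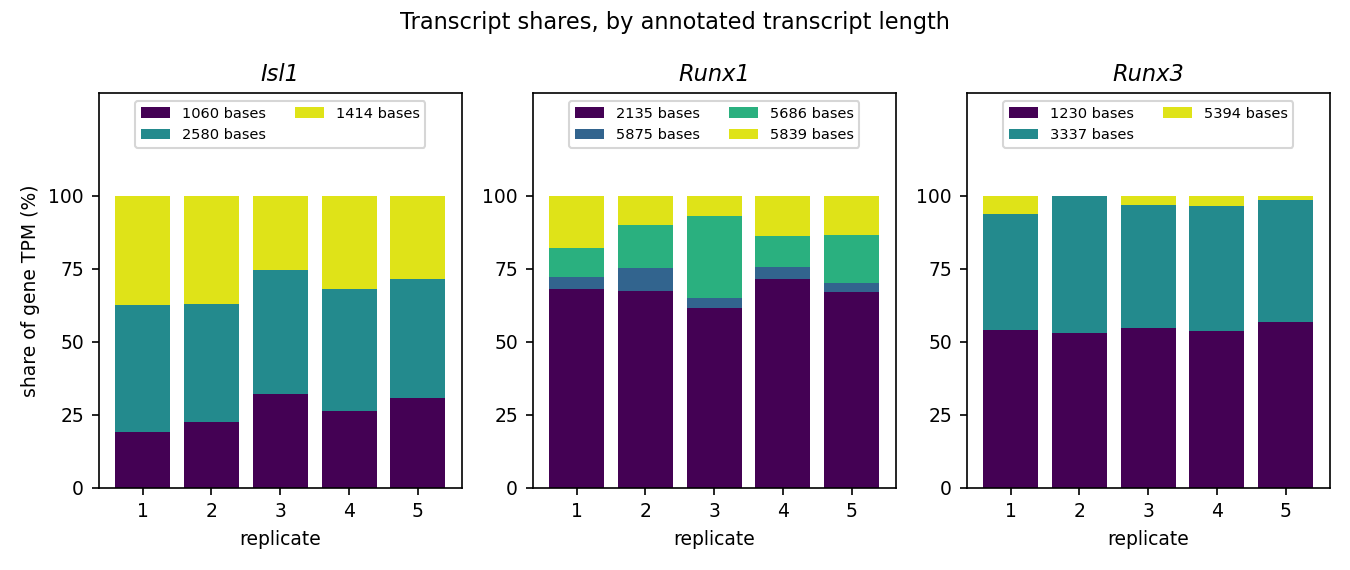
Share of gene TPM (percent) held by each transcript of Isl1, Runx1 and Runx3 in replicates 1 to 5, coloured by transcript length. The Runx3 split is alike in all libraries, and the 5686-base Runx1 transcript reaches 28.02% in replicate 3.

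The members differed in spread between libraries. The coefficient of variation (SD over mean) was above that given by Poisson counting of the reads for 8 of 10 members, near the 80.2% of 8138 detected genes whose reads were all assigned. It was below that value for Drgx (3.93% against 6.47%) and Pou4f3 (8.58% against 10.7%). Runx3 had the widest spread of the set, 26.4% against 11.1% from counting. Genes within 2-fold of its level had a median of 12.7%, and 88.5% of them varied less. Pou4f1 had the narrowest of the set, 3.83% against 2.53% from counting. Pou4f2 (18.9%) and Isl2 (14.3%) were also above the medians at their levels, of 13.1% and 7.56%. In all, 7 of 10 members varied more than the median gene of their level.

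**Figure D4:**
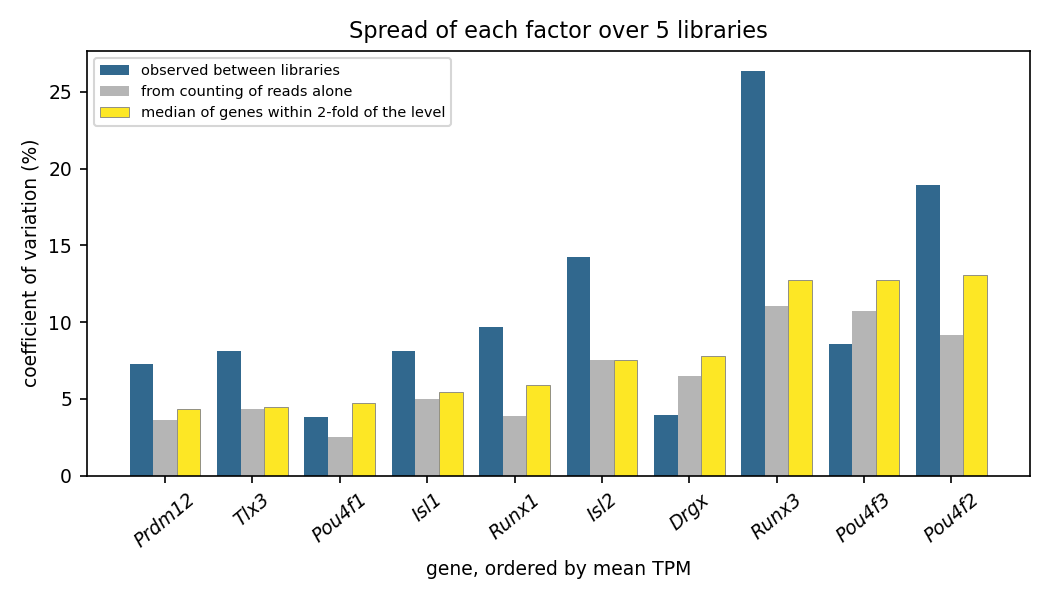
Coefficient of variation over 5 libraries (percent) for each factor, beside the value from read counting alone and the median of genes within 2-fold of its level. Runx3 stands at 26.4% and Drgx, at 3.93%, lies under its counting value.

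Library by library, the highest value fell in replicates 1 to 5 for 1, 7, 0, 1 and 1 of 10 members, beside 22.3%, 27.3%, 21.2%, 12.7% and 16.5% of detected genes. The lowest value fell there for 5, 2, 2, 0 and 1 members, beside 24.4%, 16.9%, 14.8%, 24.3% and 19.7%. Replicate 2 was the highest for Prdm12, Tlx3, Pou4f1, Isl1, Runx1, Isl2 and Pou4f3. The summed TPM of 10 pan-neuronal genes, all detected, was 8603, 9018, 8613, 8691 and 8712 in replicates 1 to 5, also highest in replicate 2, within a 1.05-fold range. The genes of that list were divided. Prph, Tubb3, Gap43, Uchl1 and Snap25 were highest in replicate 2. Stmn2 (1201 TPM) and Elavl4 (45.3 TPM) were highest in replicate 4. Nefm (239 TPM) and Nefl (159 TPM) were highest in replicate 3, and Rbfox3 (31.1 TPM) in replicate 5. Divided by the pan-neuronal sum, the coefficient of variation was smaller for 8 of 10 members, beside 41.4% of detected genes, for example 5.26% in place of 7.28% for Prdm12. Of other markers, 7 of 7 Schwann cell genes were detected, with sums of 6311 to 7356 TPM, a 1.17-fold range. The 6 of 6 detected fibroblast genes had sums of 1695 to 1739 TPM, which moved little (1.03-fold). Both sums were highest in replicate 2 and lowest in replicate 1, but not every gene in them was. The fibroblast gene Dcn was highest in replicate 1 (365 TPM) and lowest in replicate 2 (307 TPM). Divided by the Schwann cell sum, the coefficient of variation was also smaller for every member but Drgx, for example 5.34% in place of 8.11% for Isl1. Divided by the fibroblast sum, it was smaller for every member but Drgx and Runx3. A smaller spread was thus not particular to the neuronal sum. The share of detected genes was not computed for the Schwann cell and fibroblast sums. The part of cell composition in these differences was not tested.

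Runx3 was lowest in replicate 2 and highest in replicate 5. The summed TPM of 9 macrophage genes, all detected, was 1614, 1214, 1826, 1790 and 1918, likewise lowest in replicate 2 and highest in replicate 5. Most of it was C1qa, C1qc and C1qb, which followed that pattern, as did Cd68, Aif1 and Mrc1. Csf1r (42.7 TPM) and Spi1 (23.3 TPM) were lowest in replicate 2 but highest in replicate 3. Cx3cr1 was highest in replicate 1 (3.18 TPM) and lowest in replicate 4 (1.52 TPM). Per 1000 TPM of the macrophage sum, Runx3 was at 1.46, 1.64, 1.64, 1.98 and 2.00, with a coefficient of variation of 13.5% in place of 26.4%, and Runx3 was the only 1 of 10 members whose variation was smaller on this scale, beside 5.19% of detected genes. Per 1000 TPM of the pan-neuronal sum it stayed at 26.97%. Runx1 was highest in replicate 2, where the macrophage sum was lowest. The summed TPM of 5 satellite glial genes was 8489, 8395, 10217, 10392 and 10977, also lowest in replicate 2 and highest in replicate 5. Most of that sum was Apoe (9129 ± 1167 TPM), a lipid carrier gene that macrophages express too. The other genes of the list were divided. Glul (221 TPM) and Fabp7 (158 TPM) were also lowest in replicate 2, and both were highest in replicate 3. Kcnj10 and Cdh19 were highest in replicate 2. The sum of 8 lymphocyte genes was 40.3, 32.8, 49.4, 48.5 and 53.4, again lowest in replicate 2 and highest in replicate 5. Most of it was Cd4 (36.2 ± 7.40 TPM), and Cd4 and Cd8a alone were detected. Cd8a was lowest in replicate 1 (6.71 TPM). Cd3g, undetected, was lowest in replicate 4 (0.162 TPM) and highest in replicate 3 (1.06 TPM). No read was assigned to Cd3d, Cd3e or Nkg7, and at a limit of 3 reads over 5 libraries their levels could reach 0.0988, 0.0526 and 0.0753 TPM. The part of macrophage, lymphocyte or satellite glial RNA in the level of Runx3 was not tested.

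**Figure D5:**
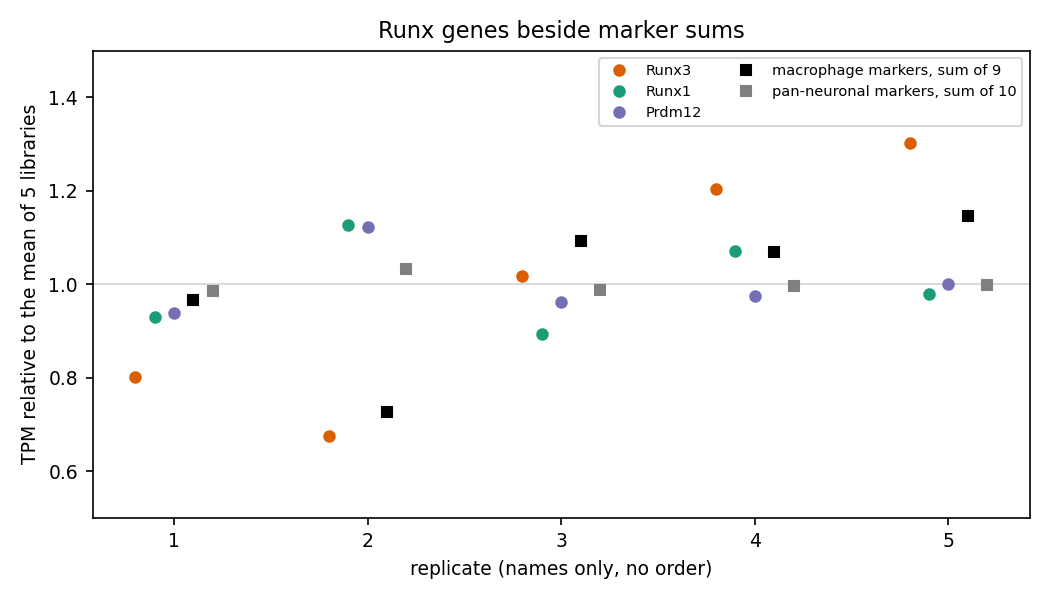
TPM of Runx3, Runx1 and Prdm12 and the summed TPM of 9 macrophage and 10 pan-neuronal genes in each library, relative to the mean of 5 libraries (replicate numbers have no order). Runx3 and the macrophage sum are lowest in replicate 2 and highest in replicate 5, and Runx1 and Prdm12 are highest in replicate 2.

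Factors of the early lineage were mostly low, and several class factors were as high as the members. Of 19 early factors, 11 were detected, beside 41.3% of all genes. Their median was 1.65 TPM, beside 0.297 TPM over all genes. Neurog1, a proneural gene of the progenitors, had 0 reads, which allows up to 0.0319 TPM, and Neurog2 was listed at 0. The highest were Sox4 at 87.4 ± 2.68, Sox2 at 83.5 ± 5.03 and Sox11 at 42.1 ± 4.38 TPM. Sox2 is also a glial gene and overlaps a non-coding RNA of 66.2 TPM. Of 40 factors of sensory classes, 32 were detected, likewise beside 41.3% of all genes, with a median of 6.95 TPM. They were led by Zeb2 (101 ± 6.22 TPM), Cux1 (91.2 ± 2.802 TPM) and Maf (80.05 ± 6.35 TPM), while Tlx1 and Gfi1 were lowest, at 0.0306 and 0.0639 TPM.

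Genes that the factors are known to control were mostly present. Of the 20 target genes that were found, 18 were detected (beside 41.3% of all genes), with a median of 15.5 TPM. Avil, an actin-binding protein gene of sensory neurons, was at 237 ± 5.95 TPM, and Gal, the neuropeptide galanin, at 330 ± 12.7 TPM. On the side of Runx3, Etv1, a proprioceptor factor, was at 16.0 ± 0.829 TPM and the calcium-binding protein gene Pvalb at 3.93 ± 2.03 TPM, from 2.33 to 7.27 TPM. On the side of Runx1, Mrgprd, a receptor gene that depends on it, was undetected at 0.0627 ± 0.0950 TPM with Runx1 itself at 14.6 ± 1.42 TPM, and Mrgprx3 was at 2.09 ± 0.287 TPM. The target list was not divided by factor, so the genes named beside Runx3 and Runx1 do not stand for all their targets. Slc17a8, a glutamate transporter gene, was the other undetected target, and Mrgpra3 was not found under that symbol. Other detected targets, Ntrk2, Ntrk3, Ret, Trpm8, Trpv1, Trpa1, Scn10a, Scn11a, P2rx3, Calca, Th and Tac1, ranged from 3.51 to 264 TPM. Trpm8 overlaps Hjurp and P2rx3 overlaps Ssrp1, so both levels are uncertain.

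Several members also mark other neurons, and defining genes of those were low. Isl1 is known from autonomic and spinal motor neurons. None of 8 autonomic genes was detected, with a summed level of 1.01 to 1.78 TPM and Dbh at 0.0141 TPM. Of 9 genes of spinal motor neurons and interneurons, Olig2 (3.44 ± 0.718 TPM) and Lmx1b (1.89 ± 0.443 TPM) were detected and Mnx1, the motor neuron factor, was at 0.0805 TPM. Of 4 genes of retinal ganglion and hair cells, Rbpms alone was detected (19.8 ± 1.74 TPM), a gene that is not confined to those cells, and Atoh1 had 0 reads, which allows up to 0.0219 TPM. Endothelial genes were detected for 1 of 4, mural genes for 3 of 4 and satellite glial genes for 5 of 5.

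Among the 168 other genes of these lists, those nearest to a member were found by the root mean square distance of log2(TPM + 0.1) over the 5 libraries, which weighs level most. Prdm16 was nearest to Isl1 (0.06), Rbfox3 to Pou4f1 (0.07), Pdgfrb to Tlx3 (0.09), Tshz2 to Prdm12 (0.11) and Scn10a to Runx1 (0.11). Runx3 had no close match, with Myt1l at 0.37. Zfhx2 was nearest to Pou4f3 (0.09) and to Pou4f2 (0.28), although Zfhx2 overlaps other genes with higher TPM and is uncertain.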

How the data were processed

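The 5 samples form 1 group, so comparisons are between genes within libraries. Per the submitters' processing notes, the authors used Salmon 1.5.1, cutadapt 2.8 and Trim Galore 0.6.6, with mRatBN7.2 as the build. For the strand setting, nothing is given in the sources used here. The authors deposited gene-level TPM for 33014 genes and, per the file headers, TPM and estimated counts of reads for 98811 transcripts. Estimated counts served for depth, counting error and levels without length normalization. RefSeq accessions of GRCr8 named 67330 transcripts. For Isl1, Pou4f1, Runx3, Tlx3 and Prdm12, the unnamed transcripts were those whose TPM, alone or as a pair, equalled what was left of the gene's TPM in all libraries within 1e-05, each time with 1 solution. Ratios were tested with limma 3.58.1 (intercept only, empirical Bayes, Benjamini-Hochberg over all genes with mean TPM of at least 1, two-sided, threshold 0.05, pseudocount 0.1), checked on simulated data. There were 11 set pairs and 6 further neighbours in the order, whose direction that order fixes. The 45 member pairs were read from the same fits. The members and lists were chosen with earlier results of these data known. The text names the members, pair genes, targets and the highest and lowest of the factor lists. Of marker lists it names only what a result turns on. A few listed genes, and the genes nearest to Isl2 and Drgx, are not reported here. Counting limits cover counting error only.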

Additional observations from a re-analysis of the deposited data

Results flagged for a closer look

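Of 46 sets of 5 library values examined (member TPM, family shares, pair ratios and transcript shares), 1 had a library far from the others, and chance alone gives about 1 in 20. The Runx1 transcript of 5875 bases held 7.67% of the gene's TPM in replicate 2, far above the share in the other libraries, beside a mean of 4.53% ± 1.81 (SD, n = 5). It was backed by 57.3 estimated reads per library on average.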

How the results depend on the processing

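Pseudocounts of 0.01 and 1, no filter on low genes and a filter at a mean of 10 TPM changed no call or called direction of the 17 pair ratios. The exact two-sided sign-flip test cannot go below p = 0.062 with 5 libraries and gave that value for 13 called ratios: Isl1 over Isl2 (log2 1.14), Pou4f1 over Pou4f2 (3.38), Pou4f1 over Pou4f3 (3.30), Runx1 over Runx3 (2.31), Isl1 over Pou4f1 (-0.76), Tlx3 over Drgx (2.29), Prdm12 over Drgx (2.42), Cbfb over Runx1 (2.24), Ldb1 over Isl1 (2.71), Tlx3 over Pou4f1 (0.32), Isl1 over Runx1 (0.26), Runx1 over Isl2 (0.88) and Drgx over Runx3 (1.36). Without division by length, with named reads alone or with value-matched reads added after seeing the data, Pou4f2 over Pou4f3 was 0.46 and Isl2 over Drgx -0.42. With value-matched reads, Tlx3 over Pou4f1 was -1.56, Isl1 over Runx1 -0.72 and Prdm12 over Tlx3 0.55, and the last passed the test. Prdm12 over Tlx3 (0.13) also passed it with the other gene as reference, an alternative likewise added later. Family shares moved with reads: Pou4f1 to 88.2% of its family and Runx1 to 37.6% (37.7% with named reads alone). Sums of named transcripts miss part of Isl1 and gave -0.79 for Isl1 over Isl2, -1.67 for Isl1 over Runx1 and 36.6% for the Isl1 share. They could not be used for Pou4f1, Tlx3 and Prdm12, which have no named transcript, and left 7 members detected. Leaving out 1 replicate in turn gave 0.22 to 0.31 for Isl1 over Runx1 and ended no other call. At 5 TPM in every library 7 members were detected. No paired analysis was possible because there is 1 group. Depth limits Runx3, Pou4f2 and Pou4f3 most, at 56 to 164 reads a library.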

Other observations

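Families of the members were read by symbol after the values were seen, as description. Prdm12 had the highest TPM of 14 Prdm genes in the table, 10 of them detected, ahead of Prdm4 at 21.3 ± 0.952 and Prdm2 at 20.8 ± 0.730 TPM. Pou4f1 was the highest of 15 Pou genes, 7 of them detected, followed by Pou3f1, a Schwann cell factor, at 25.2 ± 2.69 TPM. Isl1 and Isl2 ranked 1 and 2 among 12 LIM homeobox genes, of which 4 were detected. Among the Tlx genes, Tlx2 was also detected, at 24.8 ± 1.95 TPM and below Tlx3 in all libraries, whereas Tlx1 was not.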
